A study of Mus musculus with 3 samples.

Results

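The levels of 6 genes are described here, out of 22535 genes counted in single cells of the mouse kidney cortex: the keratins Krt7, Krt8, Krt18, Krt19 and Krt20 of simple epithelia, and vimentin (Vim). All 6 were found in each of the 3 libraries. They were chosen by earlier counts, in these same libraries, of their unique molecular identifiers (UMIs, 1 for each captured RNA molecule) by cell type, which showed the keratins that each epithelium gains after ischemia-reperfusion injury (IRI). Every level and ratio of the 6 genes below is therefore a description, and none is tested. All mice were WT1CreERT2; Rosa26-tdTfl/+ animals given tamoxifen, in which Cre under the control of Wt1 turns on the red fluorescent protein tdTomato (tdT) for good, in podocytes and in a subset of parietal epithelial cells (PECs). The library Sham came from sham-operated mice, and IRI24h-TDN and IRI24h-TD came from mice 24 h after severe bilateral IRI. In Sham and IRI24h-TDN, sorted tdT+ cells were mixed with tdT- cells at 2 to 1, whereas IRI24h-TD held tdT+ cells alone. Each library pooled 4 kidneys, the age of the mice was not given in the sources used here, and each condition is 1 library, so that there were no replicates and no test between conditions was possible.

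Keratins build the intermediate filaments of epithelial cells as obligate pairs of a type II and a type I chain. Krt7 and Krt8 are type II keratins, Krt18, Krt19 and Krt20 are type I keratins, and Krt8 with Krt18 is the basic pair of simple epithelia such as the renal tubule. Krt7 and Krt19 are typical of ducts, and Krt20 is best known from the intestine and the urothelium. Vim is a type III filament protein of mesenchymal cells and podocytes, which injured proximal tubules also make.

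Of 30008 barcodes, 26760 passed a minimum of 200 genes and a maximum of 50% mitochondrial UMIs, between 8047 and 9689 per library with median depths of 7746 to 9529 UMIs. Between 82 and 96 of these barcodes were shared by each pair of libraries. Classes of cells were rebuilt by clustering without the 6 genes and named from fixed markers, so a difference from the study may come from these names, and each class name below means cells that resemble that type. The proximal class (proximal tubular epithelial cells, PTECs) held 1028, 151 and 107 cells in Sham, IRI24h-TDN and IRI24h-TD, and the distal class held 579, 1555 and 98. The remaining cells included 1111 in clusters left unnamed. The parietal class held 225, 75 and 67 cells, the podocyte class 4172, 5087 and 8264, and the mural class (mesangial, smooth muscle and renin cells) 273, 429 and 15. All 10 parietal, 16 proximal, 10 podocyte and 10 mural markers had UMIs in the class they name in each library. That asks only for a UMI in any cell of the class and does not tell classes apart. The proximal class of Sham also had UMIs of all 10 podocyte, 10 parietal and 10 mural markers. A further 348, 139 and 164 cells carried parietal and proximal markers together and are called parietal-proximal. Levels are UMIs summed over the cells of a class and scaled to a total of 1000000 UMIs for the class (CPM), and intervals are exact 95% counting intervals, which cover counting error only. CPM from this 3' assay were not compared between genes. The 5 keratins in monocytic cells, which should lack them, were at 1.69 CPM or less in Sham and at 9.70 CPM or less in IRI24h-TDN, at median depths of 4050.5 and 5724.5 UMIs.

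The keratin genes lie in the mouse keratin clusters, type II on chromosome 15 and type I on chromosome 11, with Krt18 as the type I gene that sits beside Krt8 on chromosome 15. In the GENCODE M21 annotation of GRCm38, Krt7 occupies chr15:101411043-101430313 on the plus strand, Krt8 chr15:101996698-102004482 on the minus strand, and Krt18 chr15:102028180-102032027 on the plus strand. Krt8 and Krt18 thus face away from each other with 23697 bases between them. Krt19 occupies chr11:100140810-100148665 and Krt20 chr11:99428403-99438150, both on the minus strand, and Vim chr2:13573927-13582826 on the plus strand. Promoters of 5 of the 6 genes, from 250 bases before to 50 bases after the start, were taken from RefSeq (GRCm38.p6). The promoters of Krt8 and Krt18 are shown because this pair was higher together in every tubular segment below, and that of Krt20 because its proximal level differed most from Sham. Capitals mark TATAAA, with its neighbouring hit on the other strand where they overlap.
Krt8 promoter, chr15:102004293-102004592, minus strand: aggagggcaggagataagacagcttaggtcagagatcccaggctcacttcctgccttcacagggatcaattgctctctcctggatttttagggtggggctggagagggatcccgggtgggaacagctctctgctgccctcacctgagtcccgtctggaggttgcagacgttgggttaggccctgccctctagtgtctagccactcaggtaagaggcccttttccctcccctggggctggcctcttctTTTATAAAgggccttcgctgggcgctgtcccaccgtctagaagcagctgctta
Krt18 promoter, chr15:102027966-102028265, plus strand: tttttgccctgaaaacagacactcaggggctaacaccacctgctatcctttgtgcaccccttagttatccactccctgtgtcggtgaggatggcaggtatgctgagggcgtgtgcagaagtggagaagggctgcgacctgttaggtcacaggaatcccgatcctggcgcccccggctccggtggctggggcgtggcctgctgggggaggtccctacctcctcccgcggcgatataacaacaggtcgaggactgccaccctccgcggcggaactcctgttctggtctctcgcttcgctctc
Krt20 promoter, chr11:99438104-99438403, minus strand: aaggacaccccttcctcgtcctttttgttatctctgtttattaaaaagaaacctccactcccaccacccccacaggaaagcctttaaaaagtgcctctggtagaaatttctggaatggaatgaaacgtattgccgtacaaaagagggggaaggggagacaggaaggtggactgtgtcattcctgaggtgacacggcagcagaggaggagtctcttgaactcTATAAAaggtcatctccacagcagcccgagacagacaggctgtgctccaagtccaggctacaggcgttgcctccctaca
Searched on both strands, the TATA box letters TATAAA occurred in 13.6% of 32851 promoters of this length, and in those of Krt8 (its first hit beginning 3 bases before the start and running past it), Krt20 (beginning 29 bases before it) and Vim (beginning 32 bases before it), whereas the windows of Krt7 and Krt18 held none. AP-1 letters, TGANTCA, occurred in 7.81% of promoters and in none of these 5. The GC content was 58% for Krt8, 61.3% for Krt18 and 50% for Krt20.

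In Sham, each of the 6 genes had its own pattern along the nephron. Krt7 was highest in connecting tubule and principal cells, at 511 CPM (479 to 544), followed by intercalated cells (253 CPM), the thick ascending limb (166 CPM) and distal convoluted cells (106 CPM). It was lower in parietal-proximal cells (69.1 CPM) and podocytes (53.2 CPM), and was at 4.79 CPM in the proximal class. The counting intervals of neighbours in this order did not overlap, the closest being those of ascending limb (139 to 196) and distal convoluted cells (81.0 to 137). Apart from 12 parietal cells described further on, Krt8 was highest in parietal-proximal cells (319 CPM) and Krt18 in connecting and principal cells (229 CPM, 208 to 252). For Krt18, intercalated (182 CPM) and parietal-proximal cells (167 CPM) overlapped in their intervals. For Krt8, the proximal (68.5 CPM), distal convoluted (55.9 CPM) and ascending limb values (51.05 CPM) did so too. In the proximal class of Sham, Krt8 had a UMI in 21.5% of cells (68.5 CPM) and Krt18 in 3.40% (15.2 CPM), 2 values not compared with each other. Krt19 was at 9.96 CPM or less in every tubular class of Sham and was not seen in 1028 proximal cells, where a count of 0 allows up to 0.35 CPM. Krt20 had 63 UMIs in the parietal-proximal cells of Sham (17.3 CPM), 2 UMIs in the proximal class, both in 1 cell, and none in the distal, parietal or mural classes, while 4172 podocytes had 2. Vim was at 1805 CPM in podocytes, 2016 CPM in mural cells and 1061 CPM in parietal cells with full marker levels, against 41.1 to 98.3 CPM in the 4 distal segments and 73.6 CPM in the proximal class.

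**Figure D1:**
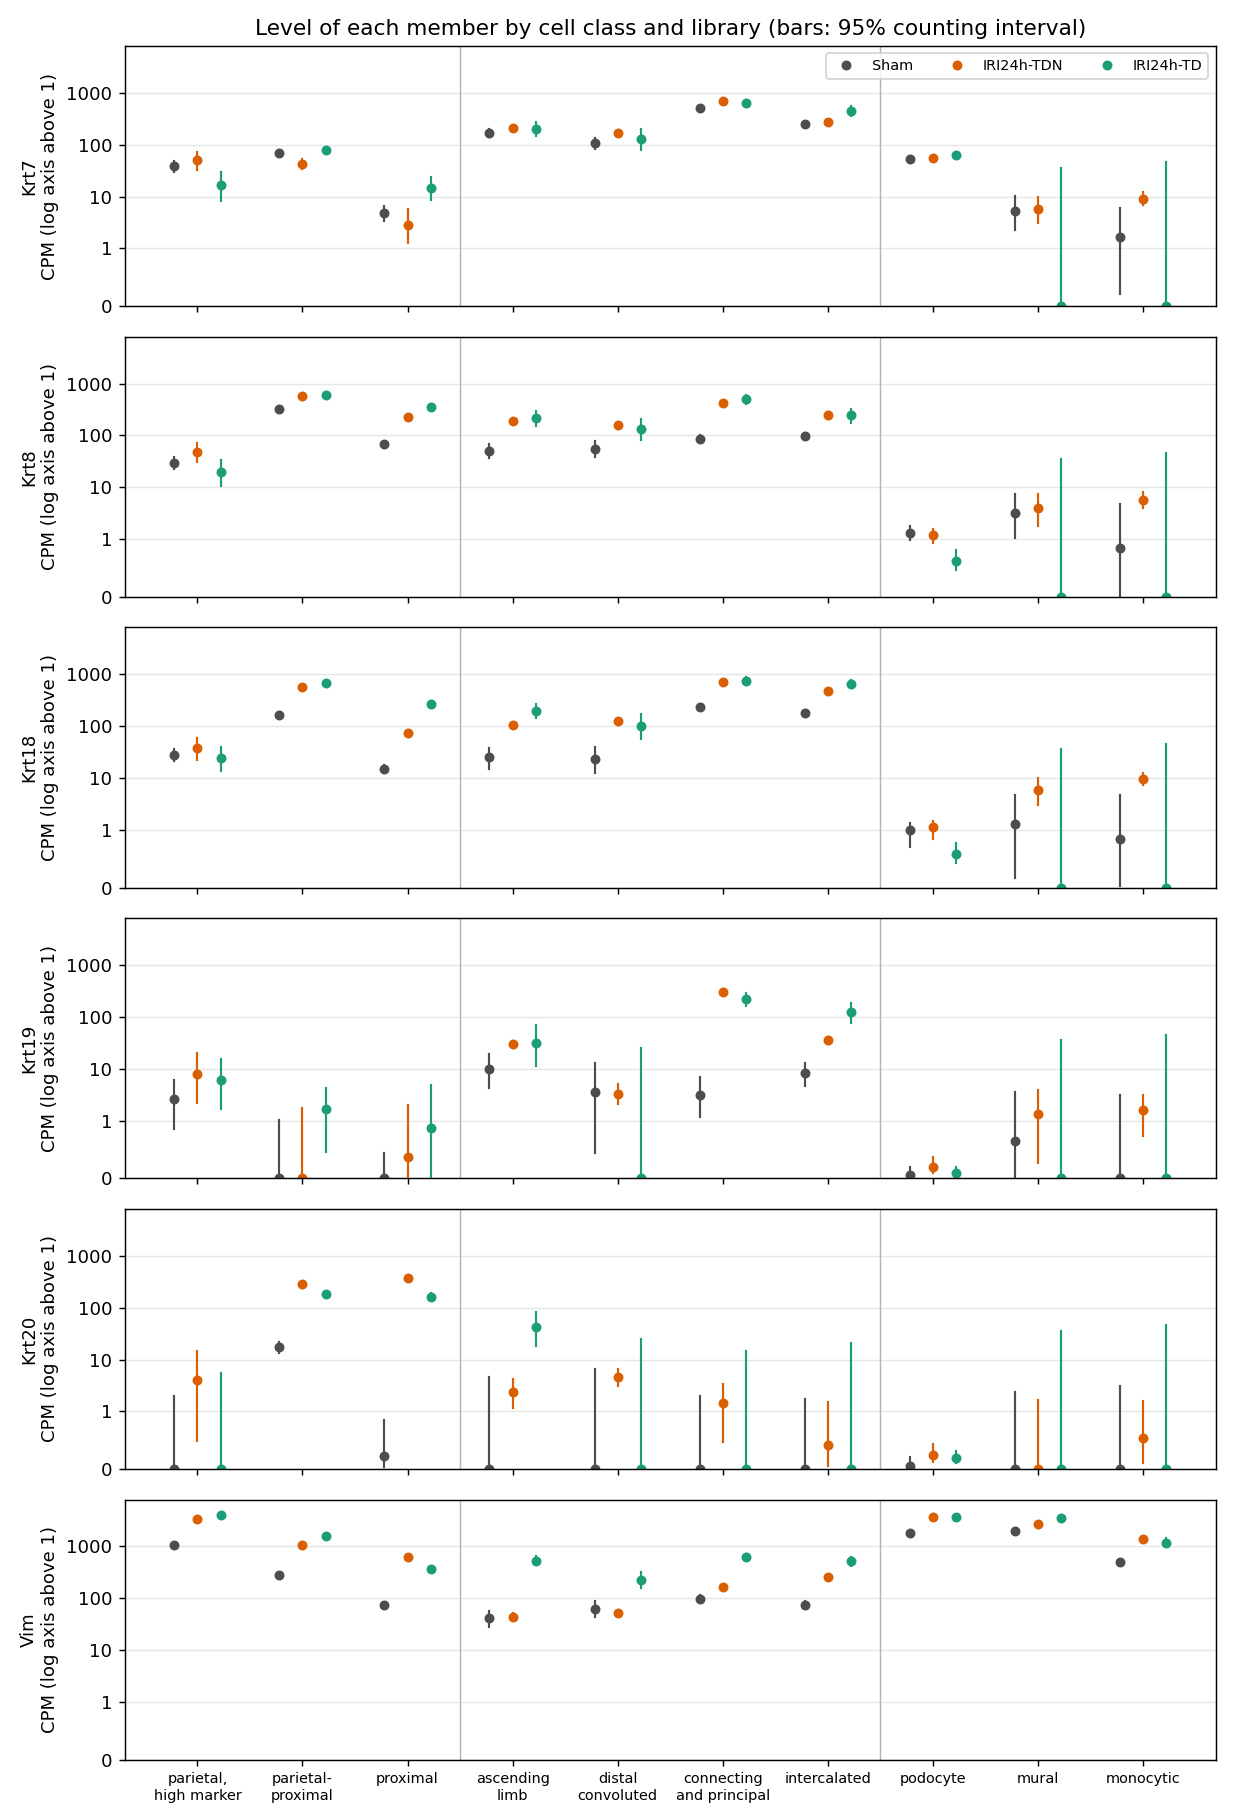
Level of each gene (CPM, log axis above 1 and linear below it) in 10 cell classes, with 1 point per library and bars for the exact 95% counting interval. Krt20 stood at 0.234 CPM in proximal cells of Sham and at 378 CPM in IRI24h-TDN, and Krt19 stood at 3.15 CPM in Sham and 297.5 CPM in IRI24h-TDN in connecting and principal cells.

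After IRI, proximal cells had Krt20, Krt8, Krt18 and Vim at higher levels, and Krt20 went from near absence to a UMI in 47.0% of cells. Krt20 had 2 UMIs in Sham (0.234 CPM, 0.0283 to 0.844), 1045 UMIs in IRI24h-TDN (378 CPM, 356 to 402) and 188 UMIs in IRI24h-TD (163 CPM, 141 to 188). Its share of cells was 0.0973% in Sham, 47.0% (38.9 to 55.3) in IRI24h-TDN and 41.1% (31.7 to 51.05) in IRI24h-TD. The log2 ratio of IRI24h-TDN to Sham was 10.66, with a counting interval from 8.80 to 13.71 that is wide because it rests on 2 UMIs in Sham. Both injury libraries were thus far above Sham, while monocytic cells of IRI24h-TDN had Krt20 in 0.230% of cells. Cells of the proximal class were deeper in IRI24h-TDN (median 14810 UMIs) than in Sham (6943), and with every cell thinned to 2400 UMIs the shares were 0% of 917 cells in Sham, 28.2% of 149 in IRI24h-TDN and 29.0% of 69 in IRI24h-TD, with 111, 2 and 38 shallower cells left out. The UMIs were unevenly spread: 10 cells held 50% of the Krt20 UMIs of IRI24h-TDN, and the richest had 85.

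The pair Krt8 and Krt18 was higher in both injury libraries. Krt8, the type II partner of Krt18 in simple epithelia, was at 68.5 CPM in Sham, 223 CPM in IRI24h-TDN and 361 CPM in IRI24h-TD, a log2 ratio of 1.71 (1.54 to 1.87) for IRI24h-TDN. Krt18 was at 15.2, 72.4 and 268 CPM in the same order, with a log2 ratio of 2.25 (1.93 to 2.58). In Sham, 114 of the 130 Krt18 UMIs were in the cluster led by Spp2 and Gatm, with 313 cells at 54.99 CPM. That cluster held 7 cells of IRI24h-TDN, at 106.5 CPM. In the cluster led by Kap and Pck1, Krt18 was at 2.485, 71.61 and 246.1 CPM in the same order of libraries. With clustering at resolution 2, the log2 ratio of the class was 4.74. The richest cell of Sham had 35 of the UMIs, and the interval covers counting error only. Krt8 and Krt18 of the whole class were both lowest in Sham and highest in the tdT+ library. Thinned cells kept this order for Krt8, with a UMI in 10.5%, 31.5% and 50.7% of cells, and for Krt18, with 1.31%, 8.72% and 37.7%. Krt7 did not follow, with 41, 8 and 17 UMIs (4.79, 2.90 and 14.7 CPM), and Krt19 had 0, 1 and 1 UMI. Under a rule that called a gene at a 2-fold difference with at least 10 UMIs in both libraries together and 20 CPM in the higher one, 4 of the 6 genes were called higher in the proximal class of IRI24h-TDN, where 9.69% of 12407 genes were. In IRI24h-TD the same 4 were called, against 12.8% of 12198 genes. Since these contrasts chose the genes, nothing is read from the counts.

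Vim, which marks injured and dedifferentiating tubules, had 630 UMIs in the proximal class of Sham (73.6 CPM), 1752 in IRI24h-TDN (634 CPM) and 423 in IRI24h-TD (367 CPM), a log2 ratio of 3.11 (2.97 to 3.24) for IRI24h-TDN. Podocytes, rich in Vim, were the most numerous cells, and the 10 podocyte markers reached 2.08%, 1.15% and 3.79% of their podocyte level in proximal cells. Carried in that proportion, podocyte RNA would bring 37.5, 41.6 and 140.2 CPM of Vim, and the part of carried RNA in these values was not tested.

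The proximal cells with Krt20 were checked against their markers. In IRI24h-TDN the 16 proximal markers took 10070 CPM in the 71 cells with a Krt20 UMI and 14580 CPM in the 80 without, against 69620 CPM in the whole proximal class of Sham. The cells with Krt20 were also the deeper ones, at a median of 21920 UMIs against 12260. The 10 parietal markers took 202 CPM in the proximal class of Sham, 1294 CPM in IRI24h-TDN and 3035 CPM in IRI24h-TD, and their part in the keratin values was not tested. Akap12, also counted among the injury genes, is one of these parietal markers. The cluster led by Kap and Pck1 held 688 of the 1028 proximal cells of Sham and 140 of the 151 of IRI24h-TDN, and within it Krt20 was at 0 and 389 CPM. None of the 151 proximal cells of IRI24h-TDN was among the 6% of cells with the highest doublet scores. These scores did not set mixed cells of that library apart, since they marked 5.755% of parietal-proximal cells and 6.232% of podocytes. The paper states that multiplets had been excluded when cells were selected. Whether doublets were among the cells with Krt20 was not tested. Havcr1, the kidney injury molecule of proximal tubules, had a UMI in 85.7% (71.5 to 94.6) of 42 thinned cells with Krt20 and in 65.4% (55.6 to 74.4) of 107 without. Krt8 had one in 47.6% (32.0 to 63.6) and 25.2% (17.3 to 34.5) of the same cells, and Krt18 in 21.4% (10.3 to 36.8) and 3.74% (1.03 to 9.29). The intervals overlapped for Havcr1 and Krt8 and did not for Krt18. In IRI24h-TD the Havcr1 intervals overlapped too, at 25% (8.66 to 49.1) of 20 thinned cells with Krt20 and 32.7% (19.9 to 47.5) of 49 without. In the same cells the Krt18 intervals also overlapped, at 45% (23.06 to 68.47) and 34.69% (21.67 to 49.64). So did those of Krt8, at 55% (31.53 to 76.94) and 48.98% (34.42 to 63.66). Parietal-proximal cells of IRI24h-TDN had Krt18 in 71.79% of 39 thinned cells with Krt20 and 70.53% of 95 without.

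**Figure D2:**
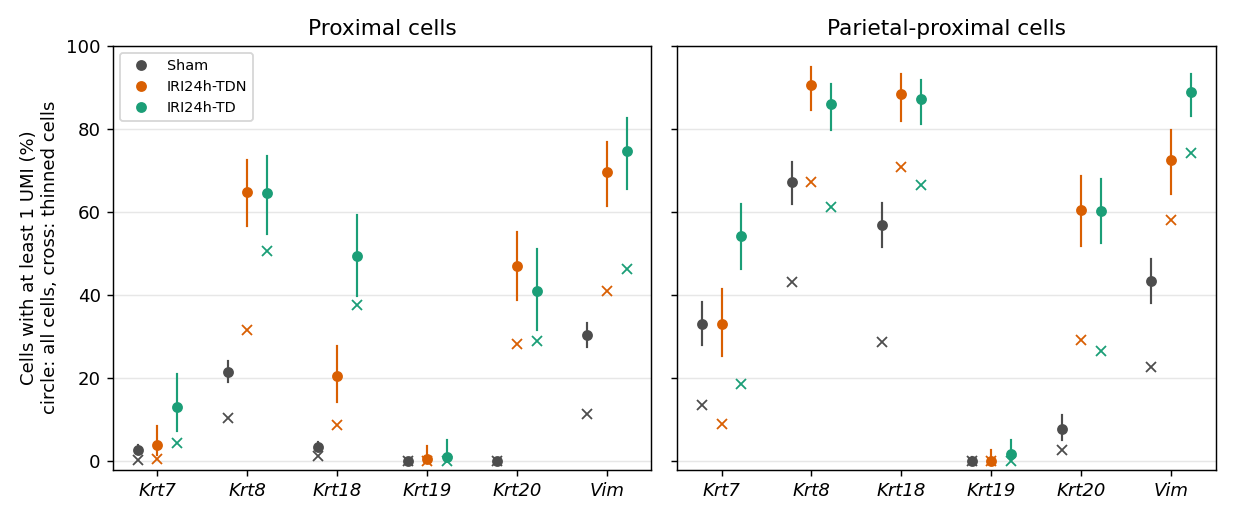
Share of cells with at least 1 UMI of each gene (percent, linear axis) in proximal cells (left) and parietal-proximal cells (right) of the 3 libraries. Circles are all cells with exact binomial 95% intervals and crosses are cells thinned to 2400 UMIs. Krt20 reached 47.0% of proximal and 60.4% of parietal-proximal cells in IRI24h-TDN, and Krt19 stayed below 2% in both classes.

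Parietal-proximal cells already had Krt8 and Krt18 in Sham and added Krt20 after IRI. Krt20 was at 17.3 CPM in Sham, 287 CPM in IRI24h-TDN and 180.3 CPM in IRI24h-TD, with a UMI in 7.76%, 60.4% and 60.4% of cells and in 2.63%, 29.1% and 26.5% of thinned cells. Krt8 was at 319, 572 and 608 CPM, a log2 ratio of 0.84 (0.72 to 0.96) for IRI24h-TDN that lay under the 2-fold limit. Krt18 was at 167, 561 and 686 CPM, a log2 ratio of 1.75. Vim was at 280.1, 1060.2 and 1582 CPM, Krt7 at 69.1, 42.2 and 79.0 CPM, and Krt19 had 0, 0 and 4 UMIs. Thus 3 of the 6 genes, Krt18, Krt20 and Vim, were called higher in IRI24h-TDN, where 4.32% of 12291 genes were, and the same 3 in IRI24h-TD, where 4.87% of 12326 genes were. In a cluster of this class led by the proliferation genes Top2a and Mki67, with 15, 27 and 35 cells, Krt20 was at 0, 342.5 and 218 CPM and Krt18 at 35.9, 723 and 747 CPM. Podocyte RNA at the measured marker level would bring 103.7, 160.0 and 347 CPM of Vim to the class.

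Distal cells had another pattern: Krt8 and Krt18 were higher in all 4 segments, Krt19 was higher in the connecting tubule and principal cells above all, and Krt20 stayed low in IRI24h-TDN. Over the whole distal class, Krt8 was at 81.5, 238 and 298 CPM in Sham, IRI24h-TDN and IRI24h-TD, and Krt19 at 6.17, 70.8 and 108 CPM. These 2 of the 6 genes were called higher in IRI24h-TDN, where 2.5% of 13832 genes were. Krt18, at 159, 313 and 468 CPM, lay just outside the limit with a log2 ratio of 0.98 (0.88 to 1.09), and Vim of podocytes lay just inside with 1.002 (0.99 to 1.02). Krt20 had 0 UMIs in Sham and 47 in IRI24h-TDN (2.44 CPM), at least 4.35-fold higher against a floor of 3 UMIs in Sham, and reached 20 CPM in no distal segment of IRI24h-TDN. In the ascending limb of IRI24h-TD it had 8 UMIs in 39 cells, or 41.9 CPM. The distal class of IRI24h-TD was small and shallow, with 98 cells at a median of 3651.5 UMIs.

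Krt19, a type I keratin of ducts and of the urothelium, had 6 UMIs in 236 connecting and principal cells of Sham (3.15 CPM), 1035 UMIs in 336 cells of IRI24h-TDN (297.5 CPM) and 55 UMIs in 28 cells of IRI24h-TD (217 CPM). It was present in 2.12% (0.69 to 4.87), 68.2% (62.9 to 73.1) and 42.9% (24.5 to 62.8) of these cells, and in 0%, 42.0% and 33.3% of thinned cells. The log2 ratio of IRI24h-TDN to Sham was 6.56 (5.43 to 8.01), and both injury libraries lay above Sham without overlap of the intervals. Many cells shared in it, since 47 cells held 50% of the UMIs and the richest had 30. Connecting tubule and principal cell markers took 13260 CPM in the 229 cells with it and 12720 CPM in the 107 without. No cell of the 336 had 2 or more UMIs of urothelial markers. In the other segments Krt19 was at 8.14 and 35.5 CPM in intercalated cells, 9.96 and 29.6 CPM in the ascending limb, and 3.60 and 3.32 CPM in distal convoluted cells, in Sham and IRI24h-TDN. The log2 ratios were thus 2.13, 1.57 and -0.12 in these segments, the last with an interval from -2.15 to 3.02.

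Krt8 was called higher in each of the 4 segments, from 51.05 to 191 CPM in the ascending limb, 55.9 to 158 CPM in distal convoluted cells, 85.7 to 428 CPM in connecting and principal cells and 96.3 to 252 CPM in intercalated cells. Krt18 was too, from 24.9 to 105.5, 23.4 to 127, 229 to 709.7 and 182 to 480.1 CPM in the same order. Intercalated cells fell into a pair of clusters in different proportions, the one led by Aqp6 and Slc4a1 with 131 of the 182 cells of Sham and 146 of the 343 of IRI24h-TDN, the other, led by Slc26a4, with 51 and 197. Within the first, Krt8 was at 27.2 and 144 CPM and Krt18 at 94.0 and 354 CPM. Within the second the differences of these 2 and of Krt7 were under 2-fold. Krt8 was at 225.9 and 309.5 CPM, Krt18 at 347 and 546 CPM, and Krt7 lower at 468 and 305 CPM. Krt19 had 0 and 2 UMIs in the first cluster and was at 23.4 and 53.6 CPM in the second. Over the segments taken whole, the log2 ratios lay between 1.39 and 2.32 for Krt8 and between 1.40 and 2.44 for Krt18. The share of all genes called higher was 4.88% in the ascending limb, 5.72% in distal convoluted, 4.36% in connecting and principal, and 3.87% in intercalated cells. The makeup of the class differed between the libraries, since connecting and principal cells were 40.8% of the distal cells of Sham and 21.6% of those of IRI24h-TDN. With the segments weighted equally, Krt18 of the whole class passed the limit at a log2 ratio of 1.63. Krt7 was at 317 and 301 CPM over the whole class but had log2 ratios of 0.34 in the ascending limb, 0.67 in distal convoluted, 0.47 in connecting and principal and 0.09 in intercalated cells, none of them called.

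Vim was called higher in 1 of the 4 distal segments. It was at 75.7 and 261 CPM in intercalated cells of Sham and IRI24h-TDN, and podocyte markers there went from 3.68% to 6.78% of their podocyte level, which would bring 66.5 and 245 CPM of Vim. In connecting and principal cells it was at 98.3 and 168 CPM, with 61.7 and 141.9 CPM for the amount carried. The ascending limb and distal convoluted cells, at 41.1 and 63.1 CPM in Sham, had 44.6 and 51.5 CPM in IRI24h-TDN, while podocyte markers went from 1.35% to 0.762% and from 1.28% to 0.619% of their podocyte level. Over the whole distal class Vim was at 77.2 and 122 CPM, with podocyte markers at 2.99% and 2.76%. The log2 ratio of Vim in this class was 0.66, and 0.049 without the cells marked by the highest doublet scores. The part of carried RNA or of doublets in these values was not tested.

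**Figure D3:**
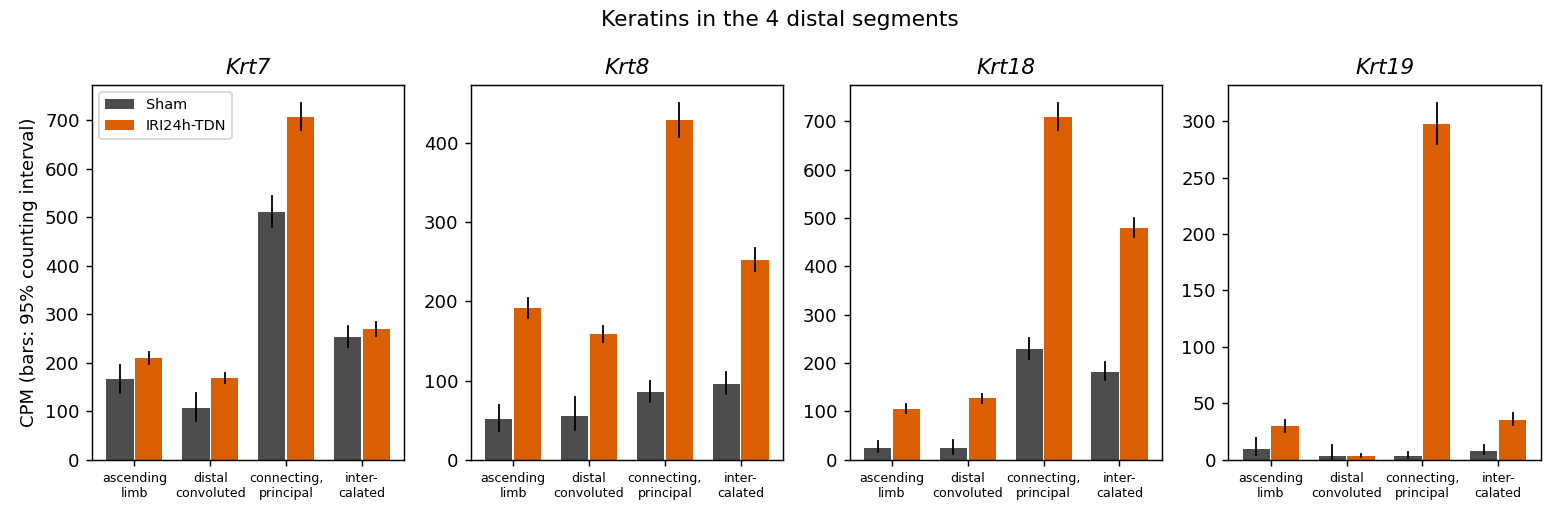
Levels (CPM, linear axes from 0, which differ between panels) of Krt7, Krt8, Krt18 and Krt19 in the 4 distal segments of Sham and IRI24h-TDN, with bars for the exact 95% counting interval. Krt8 and Krt18 were higher in each segment of IRI24h-TDN, and Krt19 stood out in connecting and principal cells at 297.5 against 3.15 CPM.

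PECs line Bowman's capsule. Cells of the parietal class with full marker levels had more Vim after IRI, while Krt7, Krt8 and Krt18 were not called higher. Krt19 and Krt20 had too few UMIs in these cells to be called. In the parietal cluster taken whole, all 5 keratins were called higher in IRI24h-TDN. Over the whole cluster, Sham, IRI24h-TDN and IRI24h-TD had Krt7 at 45.3, 304 and 22.0 CPM, Krt8 at 40.9, 342 and 41.0 CPM, Krt18 at 53.3, 569.9 and 79.1 CPM, Krt19 at 17.4, 381 and 5.86 CPM, and Krt20 at 0, 49.0 and 8.79 CPM. These 5 were called higher in IRI24h-TDN, where 6.92% of 11379 genes were, and none lower, with Krt20 at least 32.8-fold higher against a floor of 3 UMIs in Sham. In IRI24h-TD, by contrast, Vim alone was called higher, where 3.78% of 11077 genes were, and Krt7 was called lower, where 5.12% were. Vim of the whole cluster was at 1019.9, 1936 and 4035 CPM.

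The cells of the cluster were clustered a second time, after these values had been seen, and 2 of 6 sub-clusters had low levels of the 10 parietal markers, at 23.3% and 7.61% of that of the cluster. The first, with 24 cells, was led by Aqp1, Lcn2, Arc, Hsd11b1 and Npy. The second, with 19 cells, was led by Sprr1a, Sprr2a3, Krt5, Foxq1 and Ly6d, and Krt14 and Krt15, keratins of stratified epithelia, were among its leading genes. Together they held 12 of the 225 cells of Sham, 28 of the 75 of IRI24h-TDN and 3 of the 67 of IRI24h-TD. In IRI24h-TDN these 28 cells held 91.0% of the Krt7 UMIs of the cluster, 92.4% of Krt8, 96.4% of Krt18, 98.9% of Krt19 and 95.6% of Krt20, but 4.16% of Vim. Of the Krt19 UMIs of the cluster in IRI24h-TDN, 87.7% were in the 9 cells with at least 2 UMIs of urothelial markers.

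In the remaining 213, 47 and 64 cells, whose sub-clusters had 90.1% to 126% of the parietal marker level of the cluster, no keratin was called higher in either injury library. Krt7 was at 38.4, 49.6 and 16.6 CPM, Krt8 at 29.4, 47.6 and 19.7 CPM, and Krt18 at 27.9, 37.7 and 24.2 CPM. Their log2 ratios for IRI24h-TDN were 0.37 (-0.35 to 1.04), 0.69 (-0.06 to 1.41) and 0.44 (-0.40 to 1.22), so that no difference from Sham was detectable at this depth, though each interval reached past 2-fold. Krt19 had 5, 4 and 4 UMIs and Krt20 had 0, 2 and 0, under the 10 UMIs in both libraries together that a call needs. Vim was at 1061 CPM in Sham (1015 to 1108), 3380 CPM in IRI24h-TDN (3221 to 3544.5) and 4022 CPM in IRI24h-TD (3871 to 4178), a log2 ratio of 1.67 (1.58 to 1.77) for IRI24h-TDN. Its share of cells was 89.7%, 97.9% and 100%, and both injury libraries were above Sham. Carried podocyte RNA would bring 54.5, 84.6 and 155.1 CPM of it. Of the 6 genes, 4 had enough UMIs for a call. Vim was the only 1 of these called higher, where 4.45% of 10857 genes were in IRI24h-TDN and 3.78% of 10914 in IRI24h-TD. Krt7 was called lower in IRI24h-TD, with 11 UMIs against 73, where 5.26% of genes were.

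**Figure D4:**
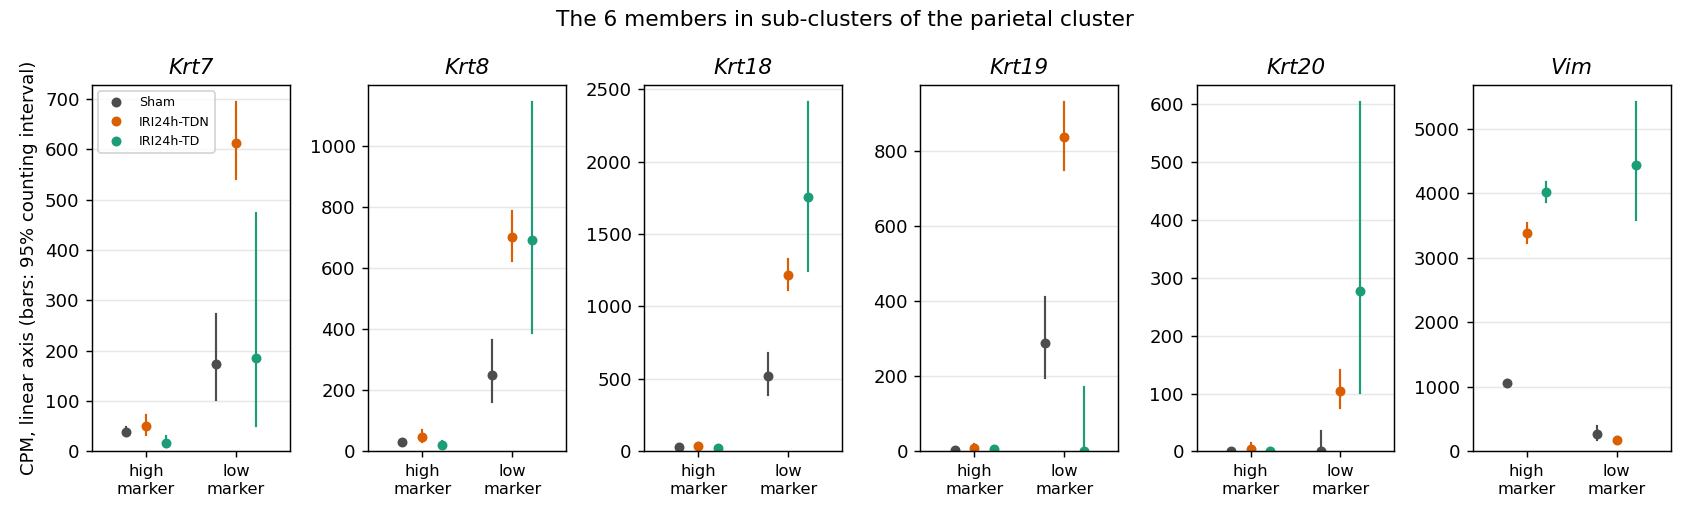
Levels (CPM, linear axes that differ between panels) of the 6 genes in sub-clusters of the parietal cluster with high and with low parietal marker levels, 1 point per library with exact 95% counting intervals. In IRI24h-TDN the low-marker cells had Krt19 at 836 CPM and Vim at 179 CPM, and the high-marker cells had Krt19 at 7.94 CPM and Vim at 3380 CPM. The low-marker group of IRI24h-TD held 3 cells.

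Podocytes and mural cells, both rich in Vim, had no keratin called higher after IRI. Apart from Krt7 of podocytes, no keratin there reached the 20 CPM that a call needs, so none could be called. In podocytes, Vim was at 1805, 3616 and 3695 CPM in Sham, IRI24h-TDN and IRI24h-TD, with a UMI in over 99% of cells of each library, and Krt7 was at 53.2, 56.0 and 62.9 CPM. Krt8, Krt18, Krt19 and Krt20 were at 1.34 CPM or less in each library. Vim alone was called higher, where 1.34% of 14432 genes were in IRI24h-TDN and 1.35% of 14688 in IRI24h-TD. In mural cells, Vim was at 2016 CPM in Sham and 2747 CPM in IRI24h-TDN, a log2 ratio of 0.45 (0.38 to 0.51) under the limit, and no keratin passed 5.75 CPM. None of the 6 genes was called there, against 2.14% of 11090 genes, and Vim alone had the level for a call. Krt18 had 2 and 13 UMIs in mural cells of Sham and IRI24h-TDN. The 15 mural cells of IRI24h-TD had Vim at 3599.7 CPM and no keratin UMI. The 775 cells that carried parietal and podocyte markers together had Vim at 3835, 6314 and 5716 CPM, and their keratins were at 22.3 CPM or less.

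**Figure D5:**
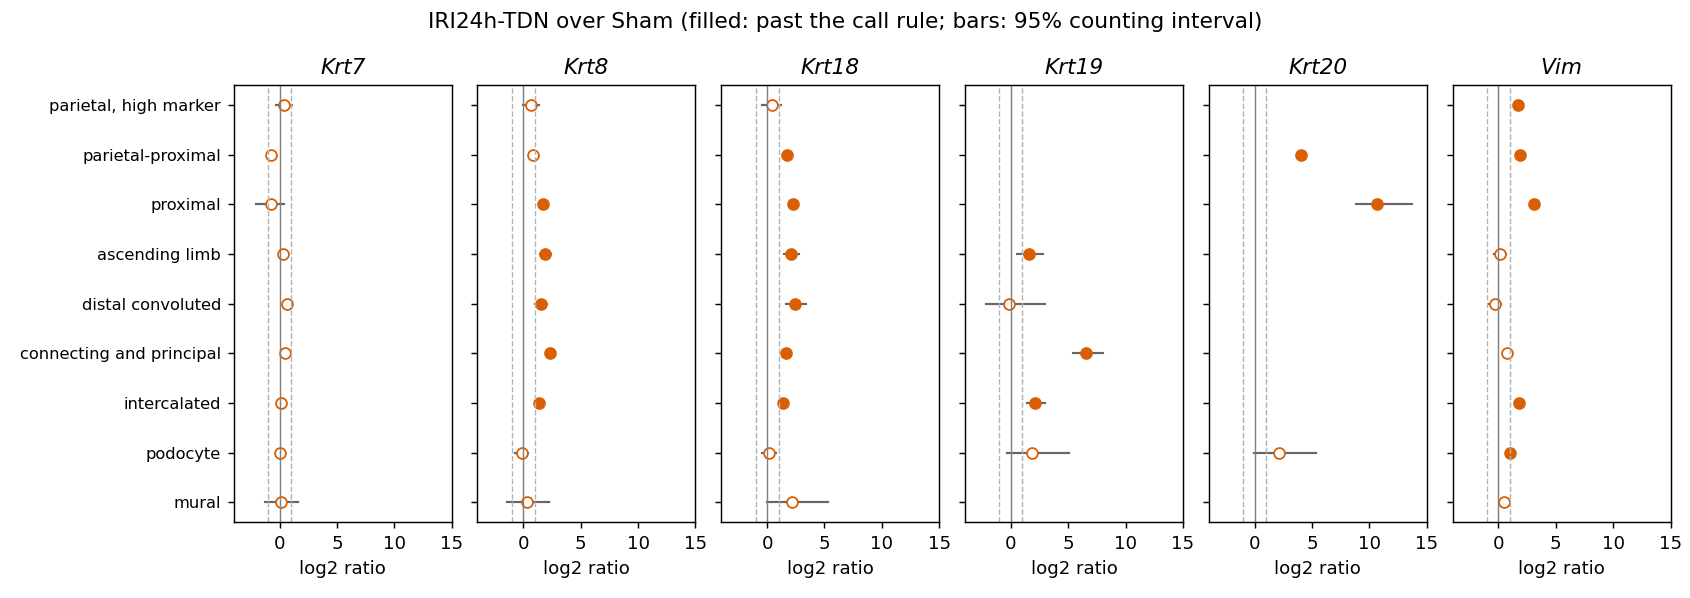
Log2 ratio of IRI24h-TDN to Sham for each gene by cell class, filled where the gene passed the limits of the call, with bars for the exact 95% counting interval and dashed lines at 2-fold either way. Genes with fewer than 10 UMIs in both libraries together or with 0 UMIs in Sham are not drawn. Krt8 and Krt18 were filled in proximal cells and all 4 distal segments, Krt20 in proximal and parietal-proximal cells, and Krt19 in 3 distal segments.

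Other genes of the filament system and of tubular injury were taken from fixed lists, chosen with earlier results known. By the same rule, 9.69% of all genes tested were called higher in proximal and 2.5% in distal cells of IRI24h-TDN. The shares were 6.92% in the whole parietal cluster and 4.45% in its high-marker cells, and nothing is read from the list counts. In proximal cells of IRI24h-TDN, 7 of the 8 injury genes were called higher, among them Havcr1 at 2895 against 5.61 CPM, Cd44 at 31.1 against 0.58 CPM, Lcn2 (lipocalin of injured tubules) at 22.4 against 0.47 CPM, Akap12 at 747 against 20.3 CPM and Anxa3 at 352 against 10.3 CPM. The median log2 ratio of the list was 5.15, beside 0.05 over all genes tested. Of 11 linker and desmosome genes 10 were tested and 2 called, the periplakin gene Ppl (26.8 against 0.82 CPM) and the plectin gene Plec (49.2 against 12.9 CPM), which join filaments to junctions. The nuclear lamin gene Lmna (192 against 53.8 CPM) was the only 1 called of 7 tested among 17 other filament genes. In distal cells of IRI24h-TDN, 6 of 8 injury genes were called higher, led by Lcn2 (3393 against 111 CPM), Spp1 (26836 against 1794 CPM), Clu (10218 against 1179.7 CPM), Sox9 (84.5 against 14.02 CPM) and Anxa3 (99.4 against 24.7 CPM), and none of the 11 linker or 10 tested filament genes was. Over the whole parietal cluster, Krt5 (165 against 3.99 CPM), Krt14 (65.4 against 1.99 CPM), Krt23 (50.1 against 1.49 CPM), Krt80 (21.8 against 6.48 CPM) and Krt4 (47.9 CPM against 0) were called higher and Synm lower (30.5 against 84.2 CPM), with Dsg2, Jup, Ppl and Dsp among the linkers and Lcn2 and Spp1 among the injury genes. In the high-marker parietal cells, 0 of 8 tested other filament genes and 1 of 11 linkers were called, Ppl at 129 against 59.4 CPM, together with Lcn2 at 274 against 1.58 CPM and Spp1 at 13469 against 3370 CPM. Of the 4 cycling genes, none of 3 tested was called in proximal cells of IRI24h-TDN, none of 4 in distal cells and none of 3 in the whole parietal cluster, where the median log2 ratio was 3.67 at levels under 20 CPM, and none had enough UMIs in high-marker parietal cells. Top2a and Mki67 were called higher in connecting and principal cells of IRI24h-TDN, where 4.36% of genes were. Ube2c and Birc5 were called higher in parietal-proximal cells of IRI24h-TDN (4.32% of genes), and these and Top2a in those of IRI24h-TD (4.87%). In proximal cells of IRI24h-TD, Top2a and Birc5 were called higher, where 12.8% of genes were.

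Likeness between the genes was measured by Pearson's r of log2(CPM + 10) over 30 pools of at least 50 cells from 14 classes in 3 libraries, among 11658 genes. The pools share libraries and depth, and r is given as a description. Krt8 and Krt18 were alike with r of 0.955, second nearest and nearest to each other. The nearest genes to Krt7 were Grhl2 (0.91), Mal2, Tmem30b, AA986860 and Cldn7, and those to Krt8 were 5730559C18Rik (0.97), Krt18 and Smim22. Beside Krt8, those to Krt18 were Cnksr1 (0.94), Fam149a, Cgn and Ccdc120. Krt19 was most like Oit1 (0.92), Krt23 (0.80), Mpzl3, Rab15 and S100a14, and Krt20 most like Havcr1 (0.93), Serpina10, Steap1, Eif6 and Nudcd2. Vim was most like Lims1 (0.93), Itgb1, Rock2, Rhbdd1 and Pxdc1, and its r with Krt7, Krt8 and Krt18 was -0.53, -0.54 and -0.46. The r between Krt19 and Krt20 was 0.0128.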

How the data were processed

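Single cells from 3 libraries (BD Rhapsody, 3' UMI counts) were used. The deposited UMI counts per gene and cell were made by the authors, whose submitted processing notes name CASAVA 1.8, UMI-tools, Seurat and mm10. All values were whole, and library totals were 69980443, 92355554 and 93470709 UMIs.

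Barcodes were filtered as stated in the report and clustered without the 6 genes, on 2000 variable genes, 30 principal components, Harmony correction (theta 2), 15 neighbours and Leiden resolution 1 (leidenalg 0.10.2, scikit-learn 1.9.0, Python 3.11.15), giving 33 clusters. Clusters were named from 121 markers, 120 of them in the counts, with at least 3 markers in 25% of cells. Clusters with markers of more than 1 class were kept apart as mixed. Named genes were the 6 genes, called genes of the fixed lists and up to 5 genes most like each, of which 1 or more are not reported here. Ratios carry exact conditional intervals and shares carry Clopper-Pearson intervals. No count test was run, since each condition was 1 library, and edgeR 4.0.16 gave only TMM scaling as an alternative. Scripts were tested on simulated data.

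The 6 genes and the lists were chosen with earlier results of these data known. The naming thresholds, the second clustering of the parietal cluster and 3 alternatives were chosen after seeing the data.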

Additional observations from a re-analysis of the deposited data

How the results depend on the processing

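Of 69 counts of the 6 genes called higher in IRI24h-TDN under 17 alternatives, 3 of them chosen after seeing the data, 55 stayed within 1.5 times the reported count. In the parietal cluster the count of 5 became 3 (Krt8, Krt18 and Vim) with a minimum of 500 genes or a maximum of 25% mitochondrial UMIs, where the class grew to 473 or 449 cells of Sham, and 1 (Vim) without Harmony correction or without the low-marker sub-clusters, the latter an alternative chosen after seeing the data. In the proximal class the count of 4 became 0 without correction, where 5 cells of IRI24h-TDN remained, and there the log2 ratio of Krt8 turned to -0.016. In podocytes the count of 1, Vim, became 0 with 500 genes, 25% mitochondrial UMIs, no correction, resolution 2, mixed cells merged in or a 4-fold limit, and 3 (Krt19, Krt20 and Vim) without minimum counts. In the distal class the count of 2 became 1 (Krt19) at 4-fold, and in the mural class 0 became 2 (Krt18 and Krt19) without minimum counts. Krt18 of the distal class passed the limit under TMM scaling (1.14) and with thinned cells (1.08). With parietal-proximal cells added to the proximal class, the log2 ratio of Krt20 was 5.99 in place of 10.66. Apart from those construction effects, the cause was not tested. No paired analysis was possible because each condition had 1 library. The keratin counts of high-marker parietal cells rest on 47 cells of IRI24h-TDN.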
